A study of Mus musculus with 8 samples.

Results

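Whether the loss of Geminin changed the spinal neural tube and the neighbouring paraxial tissue to different degrees was asked by taking, in each embryo, the scaled log2 signal in neural tube minus that in paraxial tissue, and comparing this tissue difference between genotypes. All 8 of the 8 arrays of the series entered, which made 4 embryos with 1 array per tissue each. The control groups came from 2 wild-type C57BL/6 embryos at E10.5, each giving its neural tube and its paraxial tissue. The mutant groups were the same tissues of 2 C57BL/6 embryos at E10.5 with the genotype given as fl/fl; cre/o, a conditional loss of Geminin. Which cre driver was used, which stretch of the gene was removed, and so which cells lost it and when, are not given in the sources used here. Tissue was cut out by laser capture, so neighbouring cells, blood and vessels in a section can be carried along.

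Geminin, encoded by Gmnn, binds the licensing factor Cdt1 and so keeps replication origins from being licensed again within a cell cycle, and it also contacts chromatin and transcription regulators. The neural tube is the epithelium that gives rise to the spinal cord. Paraxial tissue holds the somites and their derivatives, from which vertebrae, skeletal muscle and dermis form, and it lies beside vessels filled with primitive red cells and beneath the surface ectoderm.

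A positive tissue difference means a higher signal in neural tube, and 1 unit is a 2-fold difference. The interaction value is the mean tissue difference of the mutant embryos minus that of the wild-type embryos, so a negative value means that the signal stood relatively higher in paraxial tissue, or lower in neural tube, in mutants. Each array had 71.8% to 78.1% of its probes well above background, and no spot was saturated. The labelled tissues fitted their markers: the median tissue difference of 25 neural progenitor genes was 0.89 and 1.09 in the wild-type embryos and 1.38 and 1.35 in the mutants, while that of 37 dermomyotome and myotome genes was -2.60 and -3.12 against -1.97 and -1.87. All 8 arrays lay on 1 slide, with the replicate 1 embryos of both genotypes in 1 row and the replicate 2 embryos in the other. With 2 embryos per genotype, p-values measure the spread between these embryos, and an exact two-sided permutation of 2 against 2 cannot go below 0.333.

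No gene passed the test. Of 28940 genes, 0 (0%) reached a Benjamini-Hochberg adjusted p of 0.05 for the interaction in limma, and the smallest adjusted p was 0.765. At an unadjusted p under 0.05 there were 1222 genes (4.22%), fewer than the 1447 that 5% of the genes makes. Of these, 744 (2.57% of the genes) had a negative and 478 (1.65%) a positive interaction value. The negative share of these genes was 60.9%, against 50.5% after cyclic loess scaling and 49.5% after normexp background correction, so no direction is read from the split. With the embryo as a random block on all 8 arrays 0 genes passed and 1495 had an unadjusted p under 0.05. With all 8 arrays taken as independent these numbers were 0 and 373. The median interaction value over all genes was -0.02. Each account that follows therefore gives levels, counts and medians, and no list or gene below was called as changed.

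**Figure D1:**
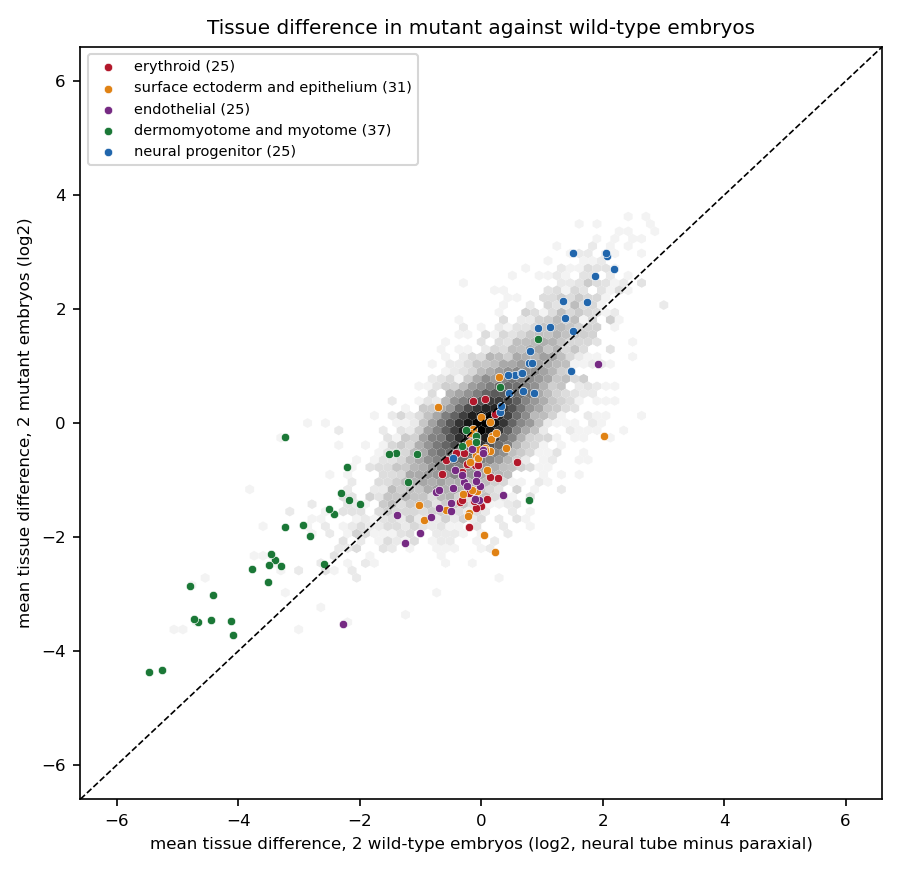
Mean tissue difference (log2, neural tube minus paraxial tissue) in the 2 mutant embryos against that in the 2 wild-type embryos. Grey shading shows the density of all 28940 genes, coloured points are members of 5 gene lists and the dashed line marks equal differences. Muscle genes lie above the line at its lower left, whereas erythroid, surface ectoderm and endothelial genes lie mostly below it near the centre.

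Gmnn itself was read by 1 probe at chr13:24843715-24843774 (mouse build mm9). In neural tube its signal was 12.35 and 12.24 in the wild-type embryos and 12.11 and 11.80 in the mutants. In paraxial tissue it was 12.20 and 11.88 in wild type and 11.42 and 11.39 in mutants. In each tissue the mutant embryos were the 2 lowest. The tissue difference was 0.16 and 0.36 in wild type against 0.68 and 0.40 in mutants, an interaction value of 0.28 ± 0.24 (SE; limma adjusted p = 0.959). Whether the probe lies in the deleted part is not given, so these levels check nothing about the labels.

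Red cell genes carried more signal in the paraxial tissue of mutants. Of 27 erythroid genes in the list, 25 were tested and all 25 were well above background on all 8 arrays. Their interaction value was negative in 23 of 25, where 52.6% of all genes were negative. At an unadjusted p under 0.05, 11 were lower (2.57% of all genes) and 0 were higher. The mutant and wild-type tissue differences did not overlap in 17 with lower and 2 with higher mutant values, against 19.2% and 14.7% of all genes. The median tissue difference of the list was -0.30 and -0.10 in the wild-type embryos and -0.72 and -0.89 in the mutants, and its median interaction value was -0.62. The genotype difference sat in paraxial tissue, where the list's median was 0.53 higher in mutants, against 0.09 in neural tube. The summed signal of the list, as a percent of the signal of all genes tested, was 0.193% to 0.209% on the 4 wild-type arrays, 0.195% and 0.198% in mutant neural tube, and 0.267% and 0.275% in mutant paraxial tissue. In such bulk material more red cells and more RNA per red cell cannot be told apart, and the same holds for every cell type below.

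Slc4a1 encodes band 3, the anion exchanger of the red cell membrane (probe at chr11:102210256-102210315, mm9). In neural tube its scaled log2 signal was 12.89 and 13.11 in wild type and 12.74 and 12.45 in mutants. In paraxial tissue it was 13.28 and 12.96 in wild type and 13.95 and 13.97 in mutants. The mutant paraxial arrays were the 2 highest of the 8, and the mutant neural tube arrays the 2 lowest. Its tissue difference was -0.39 and 0.15 in wild type and -1.21 and -1.52 in mutants, an interaction value of -1.25 ± 0.30 (SE; limma unadjusted p = 0.00938, adjusted p = 0.959). Alas2, the erythroid enzyme that begins haem synthesis (chrX:147004993-147005052, mm9), stood at 12.84 and 13.07 in wild-type neural tube and 12.90 and 12.75 in mutant neural tube. In paraxial tissue it stood at 13.11 and 13.20 in wild type and 14.03 and 14.07 in mutants. Only the mutant paraxial arrays stood apart, and the interaction value was -1.03 ± 0.23 (SE; limma unadjusted p = 0.00701, adjusted p = 0.959).

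The other members of the 11 covered several steps of red cell formation. Ahsp, a chaperone of alpha-globin, had tissue differences of -0.30 and -0.39 in wild type and -1.31 and -1.46 in mutants. Klf1, a transcription factor of globin genes, had -0.39 and -0.25 against -1.04 and -1.65. Kel, a blood group antigen of the red cell membrane, had -0.30 and -0.10 against -1.19 and -2.47. In these 3 genes neither mutant value reached a wild-type value. Epor, the erythropoietin receptor, had 1 wild-type embryo on each side of 0 (-0.57 and 0.77) and mutants at -1.22 and -1.46. Tal1, a regulator of blood and vessel precursors, had interaction value -1.27 ± 0.44 (SE), Rhd -1.09 ± 0.38 and Rhag, another member of the Rh membrane complex, -1.41 ± 0.52. The globins Hbb-bt (-1.44 ± 0.28) and Hbb-y (-0.69 ± 0.22) have near-identical relatives that can share a probe's signal, and the 2 probes of Hbb-y ran from -0.69 to 0.32. Hbb-bt also differed from the rest of the 11 in its levels, with mutant neural tube at 10.52 and 11.35 against 12.77 and 12.76 in wild type. The list was not uniform: Sptb, a membrane skeleton spectrin, had an interaction value of 0.51, Tfrc, the transferrin receptor, 0.36 and Hemgn -0.01.

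Promoter windows are shown for 3 of these genes. The letters AGATAA are the textbook core bound by GATA factors in red cells. All 3 windows were taken from those that held these letters on either strand. Each window is the 250 bases before the gene's start, printed 5′ to 3′ on the gene's strand from RefSeq on build GRCm38.p6. Capitals mark AGATAA or its reverse complement TTATCT.
Alas2, chrX:150547167-150547416, plus strand: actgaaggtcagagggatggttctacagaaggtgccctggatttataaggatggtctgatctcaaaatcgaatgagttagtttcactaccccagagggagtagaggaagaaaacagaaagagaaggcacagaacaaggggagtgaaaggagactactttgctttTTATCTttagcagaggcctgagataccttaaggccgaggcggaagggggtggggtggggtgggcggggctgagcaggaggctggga
Epor, chr9:21963577-21963826, minus strand: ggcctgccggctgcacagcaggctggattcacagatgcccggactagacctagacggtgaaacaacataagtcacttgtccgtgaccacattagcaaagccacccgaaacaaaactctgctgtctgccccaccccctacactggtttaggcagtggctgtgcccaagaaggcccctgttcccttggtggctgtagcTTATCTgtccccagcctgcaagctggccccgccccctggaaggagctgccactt
Kel, chr6:41704326-41704575, minus strand: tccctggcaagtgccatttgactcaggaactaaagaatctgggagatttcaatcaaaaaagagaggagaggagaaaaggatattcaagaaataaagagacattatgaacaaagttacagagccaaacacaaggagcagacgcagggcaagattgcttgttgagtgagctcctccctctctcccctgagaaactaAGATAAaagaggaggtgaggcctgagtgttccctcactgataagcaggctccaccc

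Each of these windows held the letters once, in Alas2 and Epor as the reverse complement. Windows were matched for 17 of the 25 erythroid genes tested, with 19 windows in all, and 5 of the 19 (26.3%) held the letters on either strand, those of Alas2, Epor, Kel, Rhd and Tal1. The windows of Klf1, Rhag, Hbb-bt and Hbb-y, which were also among the 11, did not hold the letters. Of all 32851 windows of the same length, 3281 (9.99%) held them. In the surface ectoderm list it was 1 of 18 windows (5.56%), and among p53 targets 1 of 46 (2.17%). These matches describe letters in a window and no binding was measured.

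**Figure D2:**
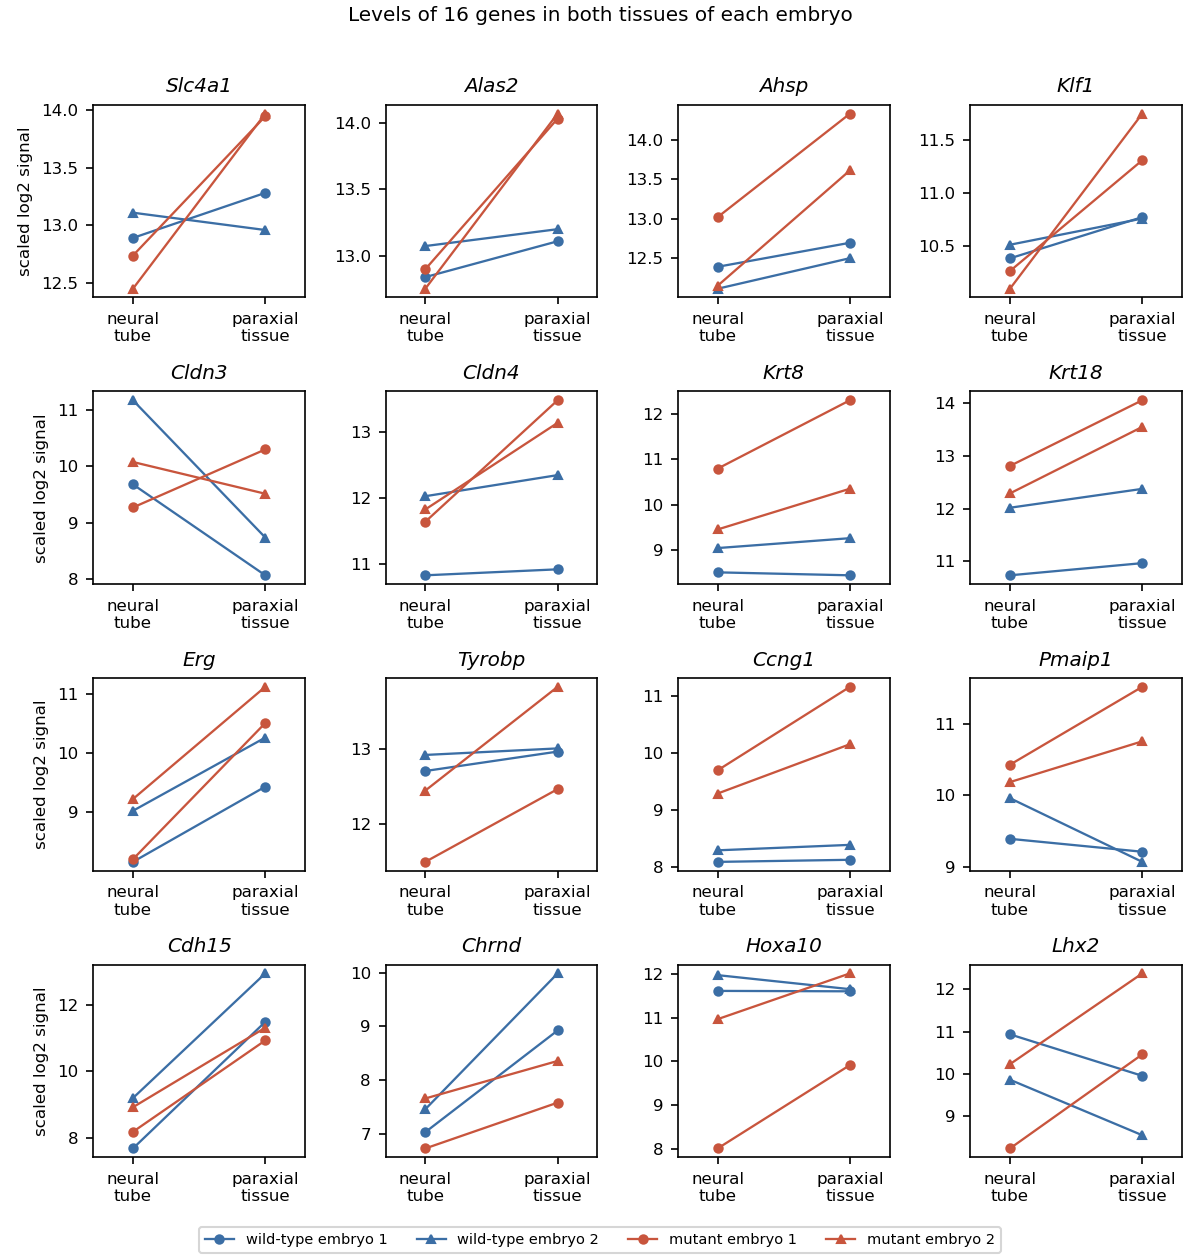
Scaled log2 signal of 16 genes in neural tube and paraxial tissue, each line joining both tissues of 1 embryo (blue wild type, red mutant, circle replicate 1, triangle replicate 2). The y axes differ between panels. Lines of both mutant embryos rise more steeply to paraxial tissue for Slc4a1, Alas2 and Ahsp, and less steeply for Cdh15 and Chrnd, than those of both wild-type embryos. Chrnd was not well above background on every array.

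Vessel and macrophage genes, which mark other cells carried in the mesenchyme, lay on the same side as the red cell genes. Of 25 endothelial genes tested, 22 were well above background on all 8 arrays. All 25 had a negative interaction value (52.6% of all genes), with a median of -0.82. Of these, 3 had an unadjusted p under 0.05 (2.57% of all genes) and 15 had tissue differences that did not overlap (19.2%), all lower in mutants. The median tissue difference was -0.63 and -0.15 in wild type and -1.57 and -0.74 in mutants, so mutant embryo 2 lay close to wild-type embryo 1. The endothelial median was -0.36 without mutant embryo 1, -0.54 without wild-type embryo 2 and -1.22 without mutant embryo 2. Erg, an endothelial transcription factor, had tissue differences of -1.27 and -1.24 in wild type and -2.30 and -1.90 in mutants. Plvap, a protein of endothelial diaphragms, had -0.63 and -0.75 against -1.71 and -1.29. Eng, a co-receptor for TGF-beta in vessels, had -0.34 and 0.26 against -1.97 and -0.74. Cdh5, the cadherin of endothelial junctions, had its highest signal, 9.60, in the neural tube of wild-type embryo 2 and an interaction value of -1.62 ± 0.82 (SE). The summed endothelial signal was 0.0601% and 0.0562% in mutant paraxial tissue, against 0.0418% and 0.0490% in wild-type paraxial tissue and 0.0239% to 0.0513% in the neural tubes.

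Of 13 macrophage genes tested, 12 were well above background on all 8 arrays. All 13 had a negative interaction value (52.6% of all genes), and the median was -0.50. Of the 13, 2 had an unadjusted p under 0.05 (2.57%) and 7 did not overlap (19.2%). The tissue that differed was not the same in both mutants. Averaged over the list, mutant embryo 1 had a neural tube level of 9.79, below the 10.44 of mutant embryo 2 and the wild-type levels of 10.68 and 10.49. For paraxial tissue, mutant embryo 2 had the highest level at 11.61, above 10.44 for mutant embryo 1 and the wild-type levels of 10.84 and 10.94. Tyrobp, a signalling adaptor of myeloid cells, had tissue differences of -0.26 and -0.09 in wild type and -0.96 and -1.37 in mutants. C1qb, a complement chain made by macrophages, had -0.65 and -0.81 against -1.31 and -1.72. Its neural tube signal was 11.90 and 12.19 in wild type and 10.75 and 12.09 in mutants, with mutant embryo 1 lowest. The macrophage median was -0.32 without wild-type embryo 1, -0.99 without mutant embryo 1 and -0.22 without mutant embryo 2. The part that these blood and vessel cells have in the interaction values of other genes was not tested.

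Genes of epithelia, of which the surface ectoderm is the nearest source outside the neural tube, also stood higher in mutant paraxial tissue. Of 34 listed genes 31 were tested, 27 of them well above background on all 8 arrays. The 31 include St14 and Ap1m2, which the probe filter let in through mutant paraxial tissue alone, so their place in the counts below is no support. Negative interaction values were found in 27 of 31 (52.6% of all genes). At an unadjusted p under 0.05, 10 were lower and 1 was higher (2.57% and 1.65% of all genes), and without overlap 21 were lower and 2 higher (19.2% and 14.7%). The median tissue difference was 0.00 and -0.13 in wild type and -0.73 and -0.49 in mutants, for a median interaction value of -0.53. Mutants exceeded wild type by a median of 0.72 in paraxial tissue and 0.25 in neural tube. The summed signal of the list was 0.111% and 0.109% in mutant paraxial tissue and 0.0837% to 0.101% on the other 6 arrays.

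Cldn3, a tight junction claudin (chr5:135463283-135463342, mm9), differed from its relatives in wild type. Its signal in wild-type neural tube was 9.68 and 11.17, and in wild-type paraxial tissue 8.06 and 8.73. In mutants neural tube stood at 9.27 and 10.07 and paraxial tissue at 10.30 and 9.51. The tissue difference was thus 1.61 and 2.43 in wild type but -1.03 and 0.56 in mutants, on either side of 0, and the interaction value was -2.26 ± 0.62 (SE; limma unadjusted p = 0.0165, adjusted p = 0.959). Both mutant paraxial arrays lay above both wild-type ones, while the neural tube values overlapped between genotypes.

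Cldn4, a second claudin (chr5:135422135-135422194, mm9), had no such excess in wild-type neural tube. It stood at 10.83 and 12.03 in wild-type neural tube, 10.92 and 12.35 in wild-type paraxial tissue, 11.64 and 11.83 in mutant neural tube, and 13.48 and 13.14 in mutant paraxial tissue. Only the mutant paraxial arrays lay above all others, and the interaction value was -1.37 ± 0.28 (SE), with the gene's other probe at -0.65. Krt18 and Krt8, the paired keratins of simple epithelia, stood higher in mutants in both tissues and more so in paraxial tissue. Krt18 was higher by 1.17 ± 0.48 (SE) in neural tube and by 2.13 ± 0.48 in paraxial tissue. For Krt8 these values were 1.35 ± 0.61 and 2.47 ± 0.61. Cldn6, a claudin of embryonic epithelia, followed with 1.20 ± 0.70 and 2.62 ± 0.70.

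St14, the membrane protease matriptase, had the lowest unadjusted p of the epithelial list (0.0011; limma adjusted p = 0.888) and an interaction value of -2.48 ± 0.35 (SE). It was well above background on neither mutant neural tube array and on 1 of the 2 wild-type arrays of each tissue. St14 thus entered the test through mutant paraxial tissue alone, so it had to stand high there and adds no support. In mutants it was at least 3.67-fold higher in paraxial tissue than in neural tube. Ap1m2, an epithelial sorting adaptor, was well above background on the mutant paraxial arrays and on no other array. It entered the test through that group alone, so it had to stand higher there and adds no support, and the bound against wild type was at least 2.83-fold. Other epithelial genes lay near 0 or above it. Trp63, the master regulator of stratified epithelium, had an interaction value of -0.00, Grhl3 of 0.12, and Ovol1, an epithelial zinc finger factor, of 0.99 ± 0.35.

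**Figure D3:**
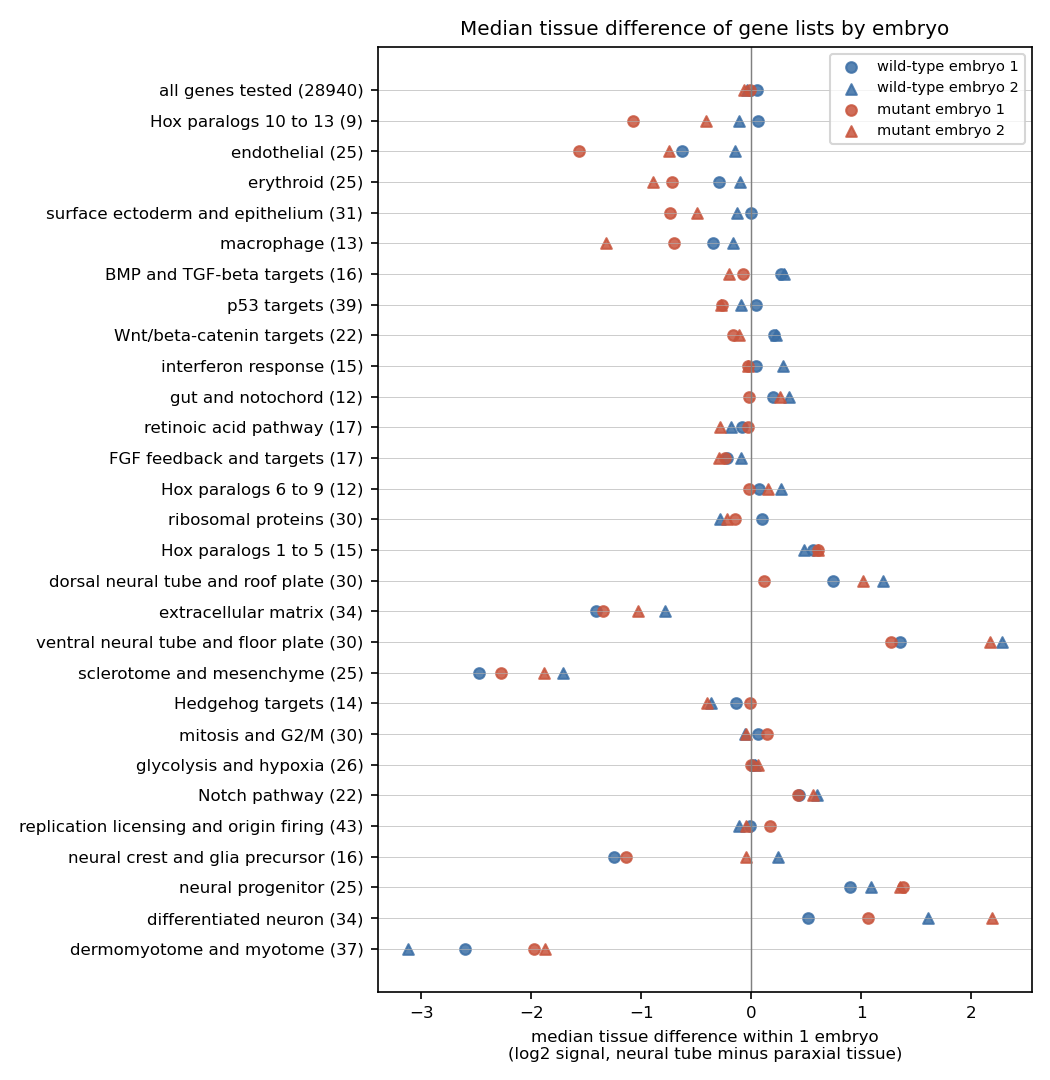
Median tissue difference (log2, neural tube minus paraxial tissue) of each gene list in each of the 4 embryos, with the number of genes tested in brackets, ordered by median interaction value. Red points (mutant) lie left of both blue points (wild type) for the erythroid, macrophage, endothelial, surface ectoderm and Hox paralogs 10 to 13 lists. The same holds for the p53, BMP and TGF-beta, Wnt, FGF and interferon lists. They lie right of both blue points for the dermomyotome and myotome, neural progenitor and Hox paralogs 1 to 5 lists. All genes tested lie near 0 in all 4 embryos.

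Muscle genes showed the opposite value, a smaller lead of paraxial tissue in mutants. Of 37 dermomyotome and myotome genes tested, 33 had a positive interaction value (47.4% of all genes). At an unadjusted p under 0.05, 10 were higher and 1 lower (1.65% and 2.57% of all genes), and 20 were higher and 2 lower without overlap (14.7% and 19.2%). The 37 include Cav3, which was tested through wild-type paraxial tissue alone, so the probe filter fixed its direction. The median interaction value was 0.88, and 31 of the 37 were well above background on all 8 arrays. The median genotype difference was -1.02 in paraxial tissue and -0.11 in neural tube. Between embryos left out in turn the list's median ran from 0.64 to 0.89. The summed signal was 0.179% and 0.247% in wild-type paraxial tissue and 0.114% and 0.172% in mutant paraxial tissue, so the wild-type value of embryo 1 and the mutant value of embryo 2 lay side by side.

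Cdh15, the M-cadherin of myoblasts (chr8:125391031-125391090, mm9), stood at 11.49 and 12.94 in wild-type and 10.93 and 11.31 in mutant paraxial tissue. In neural tube it stood at 7.68 and 9.19 in wild type and 8.18 and 8.92 in mutants. Its tissue difference was -3.81 and -3.75 in wild type and -2.75 and -2.39 in mutants, an interaction value of 1.21 ± 0.24 (SE; limma unadjusted p = 0.00497, adjusted p = 0.959). The levels of the genotypes were close in replicate 1, and the gap between tissues was narrower in both mutants. Chrnd, a subunit of the acetylcholine receptor at the muscle endplate, had tissue differences of -1.90 and -2.54 against -0.85 and -0.70. It was not well above background on all 8 arrays, and its interaction value ran from 0.98 to 1.76 across the settings tried. Myog, the regulator of myoblast differentiation, had -2.71 and -3.77 against -1.50 and -2.14. Mef2c, its partner factor, had an interaction value of 0.83 ± 0.22 (SE).

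Among contractile genes, Acta1, skeletal alpha-actin, had an interaction value of 1.18 ± 0.34 (SE), Tnni1, a slow troponin, 0.98 ± 0.28, Tnnc2, a fast troponin, 0.80 ± 0.26 and Myl4, an embryonic myosin light chain, 0.72 ± 0.23. Cav3, the muscle caveolin, was well above background on the 2 wild-type paraxial arrays alone, where it was at least 2.29-fold above wild-type neural tube and at least 1.62-fold above mutant paraxial tissue. It was tested through that group alone, which fixed its direction. Upstream factors stood closer to 0: Myod1, which commits cells to muscle, had -0.25, Pax3, a factor of muscle precursors, 0.33 and Pax7 0.55, both with overlapping embryos. Lbx1 had -2.15 ± 0.75 and is also a factor of dorsal spinal interneurons. It stood at 9.69 in the neural tube of mutant embryo 1 and at 11.25 to 12.46 in the other neural tubes.

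For other genes of the paraxial mesoderm the value depended on the embryos used. The 25 sclerotome and mesenchyme genes had a median interaction value of 0.05, with 0 of 25 at an unadjusted p under 0.05, but it was -0.36 without wild-type embryo 1 and 0.38 without wild-type embryo 2. The 34 extracellular matrix genes had a median of 0.03, which was -0.44 and 0.24 without these embryos and -0.25 without mutant embryo 2. Among sclerotome genes Pax9, a vertebral patterning factor, had 1.39 ± 0.96 (SE) with overlapping embryos. The difference between the muscle list and these lists was not tested.

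**Figure D4:**
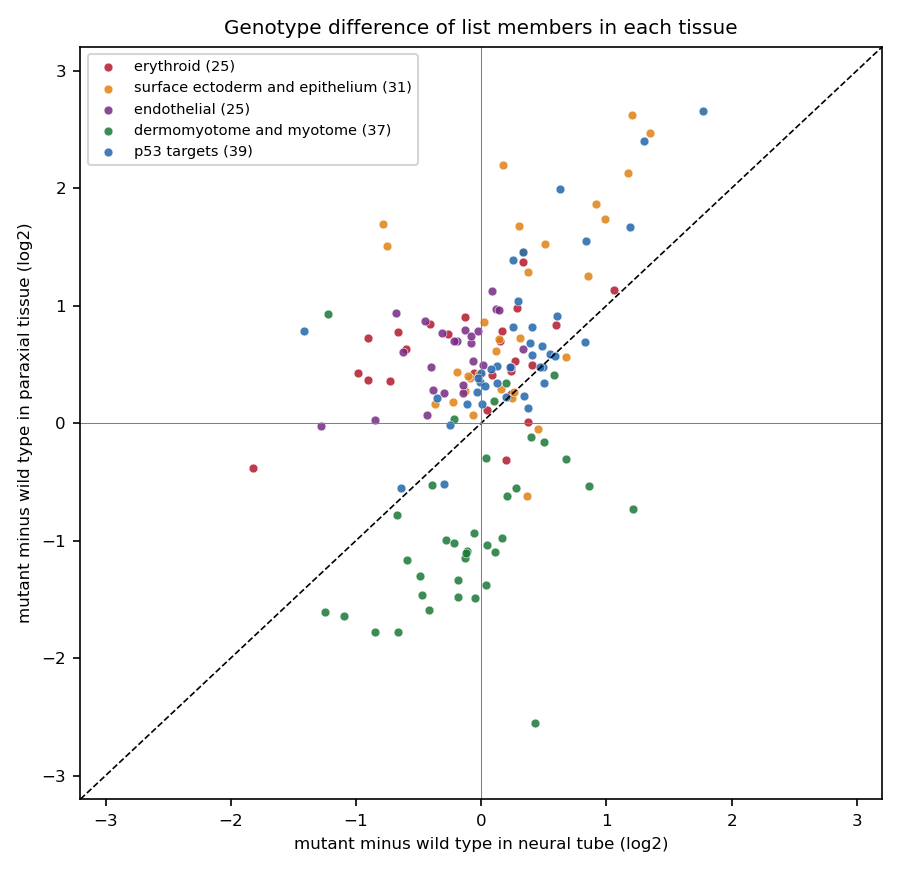
Genotype difference (log2, mutant minus wild type) in paraxial tissue against that in neural tube for members of 5 gene lists, with the dashed line marking equal differences in both tissues. Erythroid, endothelial and surface ectoderm genes lie mostly above the line, and muscle genes mostly below it with median values of -1.02 in paraxial tissue and -0.11 in neural tube.

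Targets of p53, the factor that answers DNA damage with arrest or death, stood higher in mutants in both tissues and somewhat more so in paraxial tissue. The list's median genotype difference was 0.29 in neural tube and 0.48 in paraxial tissue, against -0.007 and 0.03 over all genes. A rise in both tissues was not particular to p53 targets. Ribosomal protein genes had 0.29 and 0.39, retinoic acid genes 0.27 and 0.36, and replication licensing genes 0.40 and 0.27. Of 39 p53 targets tested, all well above background on all 8 arrays, 32 had a negative interaction value (52.6% of all genes), with a median of -0.29. Of these, 4 had an unadjusted p under 0.05 (2.57%) and 19 did not overlap (19.2%), all of them lower. Ccng1, a cyclin of the p53 response (chr11:40562427-40562486, mm9), stood at 8.09 and 8.29 in wild-type neural tube, 8.12 and 8.38 in wild-type paraxial tissue, 9.69 and 9.28 in mutant neural tube and 11.16 and 10.15 in mutant paraxial tissue. All 4 mutant values exceeded all 4 wild-type values, and the interaction value was -1.10 ± 0.29 (SE). Pmaip1, the death-promoting Noxa, had tissue differences of 0.18 and 0.89 in wild type and -1.09 and -0.57 in mutants. Dcxr, a carbonyl reductase, had 0.17 and 0.19 against -1.17 and -0.76, and Phlda3, an inhibitor of Akt signalling, -0.76 and -0.36 against -1.31 and -1.24. Eda2r, a death receptor relative, showed the genotype difference in both tissues, with 1.77 ± 0.38 in neural tube and 2.65 ± 0.38 in paraxial tissue, but its 2 probes gave interaction values from -0.88 to 0.35. Perp, which is also a junction gene of epithelia, belonged to both this and the epithelial list.

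The 43 replication licensing and origin firing genes, the group in which Geminin acts, had a median interaction value of 0.09, with 0 lower and 1 higher at an unadjusted p under 0.05 (1.65% of all genes). The median was -0.01 without mutant embryo 1 and 0.23 without mutant embryo 2. The gene at that p was Cdc7, the kinase that fires origins, with tissue differences of -0.32 and -0.55 in wild type and 0.51 and 0.05 in mutants. Its probes gave values from 0.33 to 0.72. The 30 mitosis genes had a median of 0.07 (-0.01 without mutant embryo 1) and 0 at an unadjusted p under 0.05.

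Neural lists leaned to the positive side with wide spread between embryos. Of 34 differentiated neuron genes 29 had a positive interaction value (47.4% of all genes), and the median was 0.55. Only 1 was higher at an unadjusted p under 0.05 (1.65% of all genes). Without overlap 3 were higher and 2 lower (14.7% and 19.2% of all genes). The median tissue difference was 0.51 and 1.61 in wild type and 1.06 and 2.19 in mutants, so the 2 embryos of a genotype lay further apart than the genotypes, and the median was 0.02 without wild-type embryo 1, -0.00 without mutant embryo 2, 1.09 without wild-type embryo 2 and 1.08 without mutant embryo 1. In paraxial tissue the summed neuron signal was 0.246% in wild-type embryo 1 and 0.146% to 0.170% in the other 3. Tubb3, the neuronal tubulin, had -0.12 and 0.23 against 0.52 and 0.97. Of 25 neural progenitor genes 19 were positive (47.4% of all genes), with a median of 0.29 (0.02 without mutant embryo 2, 0.55 without mutant embryo 1 and 0.53 without wild-type embryo 2). Without overlap 8 were higher and 1 lower (14.7% and 19.2% of all genes). Lrrn1, a leucine-rich repeat protein of neural precursors, was the 1 of the 25 at an unadjusted p under 0.05 (1.65% of all genes), with an interaction value of 0.73 ± 0.25 (SE). Sox1 had 0.91 and 1.35 against 1.69 in both mutants, and Pax6, with 1.49 and 2.61 against 2.26 and 3.72, overlapped.

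Patterning genes of the neural tube had medians of 0.05 for 30 ventral and -0.01 for 30 dorsal genes, and both depended on the embryos used. The ventral median was -0.20 without wild-type embryo 1, -0.18 without mutant embryo 2 and 0.26 without wild-type embryo 2. The dorsal median was -0.38, -0.47 and 0.21 without the same embryos and 0.39 without mutant embryo 1. At an unadjusted p under 0.05, 3 ventral and 5 dorsal genes were lower and 1 ventral gene was higher (2.57% and 1.65% of all genes). In each list 22 of the 30 genes were well above background on all 8 arrays. Vsx1, Nkx6-2, Wnt3 and Lmx1a were among the genes that were not. Lhx2, a LIM homeobox factor of dorsal interneurons and of several other embryonic tissues, had the smallest p of all 28940 genes. Its probe (chr2:38224933-38224992, mm9) was well above background on all 8 arrays. It stood at 10.93 and 9.86 in wild-type neural tube, 9.96 and 8.56 in wild-type paraxial tissue, 8.24 and 10.23 in mutant neural tube, and 10.46 and 12.37 in mutant paraxial tissue. The levels of the groups overlapped, but within embryos the order of the tissues turned: the tissue difference was 0.98 and 1.31 in wild type and -2.22 and -2.14 in mutants. The interaction value was -3.32 ± 0.24 (SE; limma unadjusted p = 5.31e-05, adjusted p = 0.765), with a range of -3.49 to -2.60 across 17 alternative settings. Its relative Lhx9 had 0.86 and -0.26 against -2.42 and -2.98, but its other probe gave -0.38 where the brighter gave -3.01. Foxa2, of the floor plate and notochord, had -1.78 from its brighter probe and 0.05 from the other.

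Posterior Hox genes, which mark lumbar to tail levels, made the list with the lowest median. Of 12 genes of paralogs 10 to 13, 9 were tested and 4 were well above background on all 8 arrays. Of the 9, 8 had negative values (52.6% of all genes), 2 at an unadjusted p under 0.05 (2.57%) and 6 without overlap (19.2%), and the median was -0.98. Hoxa11 (chr6:52192107-52192166, mm9) stood at 9.19 and 10.60 in wild-type neural tube and 9.37 and 11.06 in wild-type paraxial tissue. In mutants it stood at 4.83 and 9.26 in neural tube and 8.97 and 11.67 in paraxial tissue. Mutant neural tube of embryo 1 was the lowest array and was the 1 array of the 8 on which the gene was not well above background. Hoxa10 stood at 8.02 and 10.96 in mutant neural tube against 11.61 and 11.97 in wild type, and at 9.92 and 12.01 in mutant against 11.60 and 11.65 in wild-type paraxial tissue. Mutant embryo 1 was lower than mutant embryo 2 in both tissues for Hoxa10, Hoxa11, Hoxc10, Hoxd10 and Hoxd11. Paralogs 6 to 9 had a median of -0.11 and paralogs 1 to 5 of -0.02, and both changed sign with an embryo left out (ranges -0.35 to 0.06 and -0.04 to 0.03). The list's median was -0.41 without mutant embryo 1, -0.61 without wild-type embryo 2 and -1.49 without mutant embryo 2.

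Among signalling targets, BMP and TGF-beta and Wnt lists had tissue differences of opposite sign in the genotypes. Of 16 BMP and TGF-beta targets, 14 were well above background on all 8 arrays. The median tissue difference of the 16 was 0.27 and 0.30 in wild type and -0.08 and -0.20 in mutants. Of the 16, 14 had negative values (52.6% of all genes), 2 had an unadjusted p under 0.05 (2.57%) and 7 did not overlap (19.2%), all lower. Gata2, a blood and ventral interneuron factor that is also a BMP target, had 0.77 and 1.01 against -1.43 and -0.67 (interaction value -1.94 ± 0.34, SE). Id2, an inhibitor of bHLH factors, had 0.25 and 1.15 against -0.46 and -0.69. Msx1 had 0.79 and 1.56 against 0.69 and 0.17. Of 22 Wnt targets, 16 were well above background on all 8 arrays. The median of the 22 was 0.20 and 0.23 against -0.16 and -0.11. Of these, 3 were lower and 1 higher at an unadjusted p under 0.05 (2.57% and 1.65% of all genes), and each of the lower ones was dim on some arrays. Rnf43, a feedback inhibitor of Wnt receptors, was not well above background in wild-type paraxial tissue and was at least 2.61-fold higher in mutant paraxial tissue. Dkk1, a secreted Wnt antagonist, was not well above background on either mutant neural tube array and was at least 2.86-fold higher in the paraxial tissue of mutants than there. Cdx1, a posterior homeobox gene, ran from 5.81 to 11.01 among the mutant arrays and from 4.39 to 7.75 among the wild-type arrays. Myc, in contrast, had an interaction value of 0.80 ± 0.27 (SE). Axin2, a general Wnt readout, had -0.13 ± 0.23.

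The remaining lists had medians between -0.18 and 0.16. Hedgehog targets (median 0.06), Notch genes (0.08), FGF targets (-0.15), retinoic acid genes (-0.15), gut and notochord genes (-0.17), interferon response genes (-0.18), glycolysis genes (0.08), ribosomal protein genes (-0.09) and neural crest genes (0.16) had at most 3 members lower and 1 higher at an unadjusted p under 0.05 (2.57% and 1.65% of all genes). The 3 lower were among 12 gut and notochord genes, 7 of them well above background on all 8 arrays. Mutants exceeded wild type in that list by a median of 0.48 in neural tube and 0.68 in paraxial tissue. With single embryos left out the median ran from -0.60 to 0.76 for neural crest, -0.30 to 0.11 for ribosomal protein, -0.12 to 0.27 for Notch, -0.24 to 0.04 for interferon response and -0.00 to 0.25 for Hedgehog genes, so no direction is given for these. Jag2, a Notch ligand at that p, had tissue differences of 0.23 and 0.27 in wild type and -0.86 and -0.53 in mutants. Cyp26b1 and Cyp26c1, enzymes that degrade retinoic acid, had opposite values of 1.26 ± 0.37 and -2.36 ± 0.90 (SE).

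The 10 genes per direction with the smallest p among those without overlap were Lhx2, Cnksr1, Drc7, S1pr5, Olfr1204, Prdm16, Myo3b, Alx1, Nlrp10 and Urah on the negative side and Gpr37, Adgrg6, Cpne6, Gpr85, Opn3, Myh15, Myoz2, Itm2a, Mgarp and Phyhipl on the positive side. Of these 20, Lhx2 and Itm2a alone were well above background on all 8 arrays, and a gene that entered only through the group where it was bright had to differ. Of the 1222 genes at an unadjusted p under 0.05, 743 were well above background on all 8 arrays, against 25648 of all 28940. Itm2a, a membrane protein of cartilage and muscle precursors, had tissue differences of -3.62 and -3.84 in wild type and -2.30 and -2.24 in mutants (1.46 ± 0.23, SE; limma adjusted p = 0.959).

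For the dimmer genes only a bound can be given on 1 side. Alx1, a homeobox factor of craniofacial and limb mesenchyme, was well above background on both mutant paraxial arrays and on no other, in mutants at least 3.44-fold above neural tube. Cnksr1, a scaffold of Ras signalling, was at least 5.64-fold higher in mutant than in wild-type paraxial tissue. Cpne6, a copine of neurons, and Gpr85, a brain receptor, were not well above background in mutant paraxial tissue, where they stood at least 3.97-fold and at least 3.16-fold below wild type. The muscle genes Myh15 and Myoz2 were bright in wild-type paraxial tissue alone, at least 1.92-fold and at least 2.84-fold above mutant paraxial tissue. Adgrg6, a receptor needed for Schwann cell development, and Gpr37 had the same layout, with at least 2.57-fold and at least 2.27-fold. Prdm16, a chromatin regulator, was well above background on 7 of the 8 arrays and had 1.25 and 1.17 in wild type against -0.68 and -0.65 in mutants. With dim values raised to each array's lowest signal well above background, Mgarp went from 1.47 to -0.34 and Olfr1204 from -2.07 to -0.41, so that no direction is given for Mgarp.

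**Figure D5:**
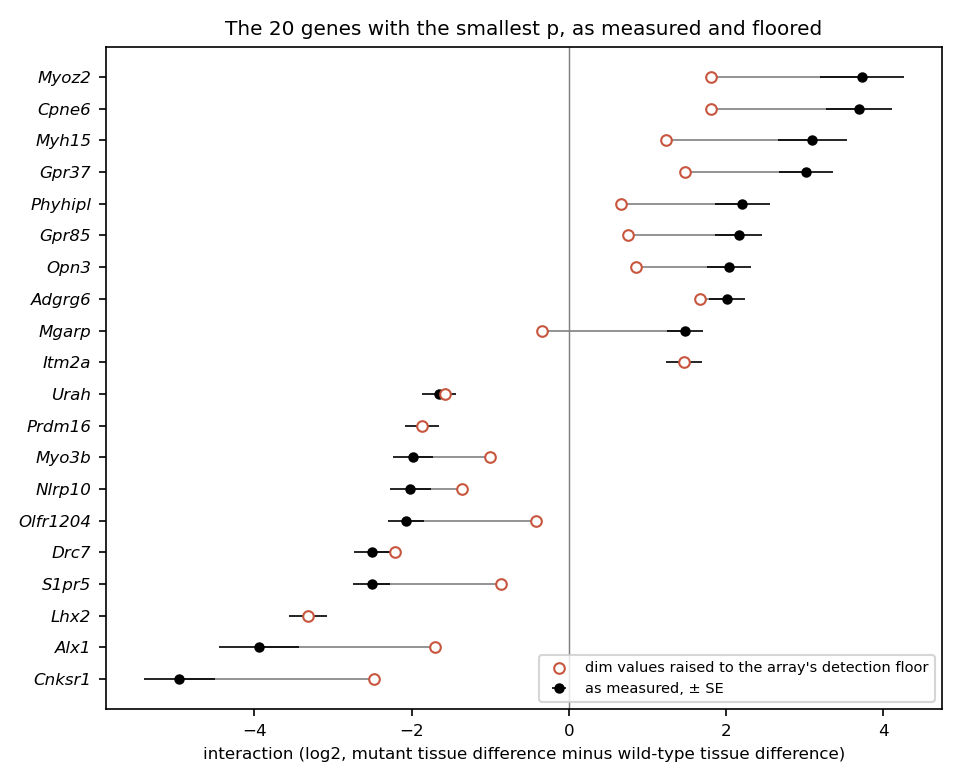
Interaction value (log2) of the 20 genes, as measured (black, bars show the SE of the limma model) and with dim values raised to each array's detection floor (red circles). Lhx2 and Itm2a do not move, most others lie closer to 0 and Mgarp changes sign.

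Which tissue held the larger genotype difference was divided about evenly. Of the 1222 genes at an unadjusted p under 0.05, 53.6% had the larger difference between genotypes in paraxial tissue, against 46.9% of all genes. Within the slide rows, each with 1 embryo per genotype, the interaction value of Slc4a1 was -0.82 and -1.67, of Alas2 -0.87 and -1.20 and of Cldn3 -2.64 and -1.87. The median of the erythroid list was -0.59 and -0.78, of the surface ectoderm list -0.73 and -0.35 and of the muscle list 0.66 and 1.04 within rows.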

How the data were processed

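Laser-captured RNA was extracted with the PicoPure kit, per the labels' protocols, and cDNA was labelled with Cy5 by the Kreatech ULS kit. Per the submitters' processing notes and the file headers, the deposited linear intensity values of the red channel come from Agilent Feature Extraction 11.0.1.1 with spatial and multiplicative detrending, and the design was annotated on mm9. Amplification before labelling is not given in the sources used here. The authors' value table differed from the scanner intensities by at most 0.497%.

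Control spots (3671) and outlier spots were left out and spots of a probe averaged, which gave 55664 of 55681 probes. The log2 processed signal was shifted so that all arrays had the same 75th percentile. A probe was kept where both arrays of any group had it well above background (42754 probes), and a gene was read by its brightest kept probe (28940 genes, 7939 of them with several). RefSeq accessions named 26045 probes and symbols 3200, and 26419 kept the name in the files. No mm9 annotation was used here, so the exon of a probe is not stated.

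The 4 within-embryo differences were fitted in limma 3.58.1 (R 4.3.3, with the data.table package, version 1.17.8) by genotype with eBayes moderation, adjusted by Benjamini-Hochberg at 0.05 (2 residual and 2.73 prior degrees of freedom). Genotype differences within a tissue came from a fit of the 4 group means in which the embryo was a random block (consensus correlation 0.603). The labels give the embryo of each sample, and both tissues of an embryo deviated together (r = 0.562 over the genes of wild-type and 0.607 over those of mutant embryos). The 2 embryos of a genotype lay in different slide rows, so embryo and row cannot be told apart in these r values. "At least" folds set the brighter mean against a floor, which on each array is the lowest signal well above background, or the gene's value where that is higher. The code was tested on simulated data, with 50 genes given each size of interaction. At 1 and at 2 log2 units 0 of the 50 passed the adjusted p of 0.05. At 3 units 10 passed and at 4 units 27. That no gene passed here thus does not show that tissue-dependent differences are absent. Named genes were Gmnn, Slc4a1, Alas2, Cldn3, the 10 genes per direction with the smallest p among those whose embryos did not overlap, and up to 4 members per list by smallest p. Further members were named after their values were seen, and some members are not reported here. The comparison, the members and the lists were chosen with earlier results of these data known. Tried as alternatives were scaling by quantile, median or cyclic loess, normexp (offset 50), the authors' values, other probe filters, the mean of probes, other models and leaving out each embryo.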

Additional observations from a re-analysis of the deposited data

Results flagged for a closer look

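For 3 gene lists the median tissue difference had opposite signs in the genotypes, in both embryos of each, and the difference was not tested. The difference between mutant and wild-type embryos, as the median interaction value, was -0.291 for BMP and TGF-beta targets, -0.202 for Wnt/beta-catenin targets and -0.181 for interferon response genes. In the interferon list the mutant medians were both -0.03, close to 0, and the wild-type medians were 0.04 and 0.29. The interferon value was 0.0406 without mutant embryo 1 and -0.0629 without wild-type embryo 2.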

How the results depend on the processing

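The number of genes past an adjusted p of 0.05 was 0 under each of the 17 alternatives but 1: without mutant embryo 1 it was 5 (left-out range 0 to 5). Those were Gm16399, Cdc16, BB166591, B4galt6 and NAP111388-1, seen after the fact, each with a signal of 4.71 to 5.04 on the paraxial array of mutant embryo 2 and of 11.03 or more on the other 7. The number at an unadjusted p under 0.05 was 1222, against 373 with no replicate block, 1495 with the embryo as a random replicate block, 2032 with the slide row as a term, and 1217 to 2920 with embryos left out, the highest without wild-type embryo 1. Embryos with the same number across genotypes shared a slide row (r of their deviations 0.202). Among single genes, reversed values were Olfr1204 at 0.0129 with normexp, Foxa2 at 0.04998 with probes well above background on all 8 arrays, Elavl4 at 0.22 with the mean of probes, and Mgarp at -0.34 with values floored, an alternative chosen after seeing the data. Of the 28 gene lists 14 kept the sign of their median under all alternatives and 14 did not, the latter with an embryo left out; among them were the ventral, dorsal, extracellular matrix, Notch, neural crest and Hox paralogs 6 to 9 lists. The erythroid median ran from -0.70 to -0.51, the surface ectoderm median from -0.70 to -0.43 and the muscle median from 0.64 to 0.98 over all alternatives. Signal near background limits most of the 20 genes with the smallest p, and 2 embryos per genotype limit every value.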
